A study of Mus musculus with 4 samples.

Results

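The Wnt pathway was followed through 42 genes in lungs of mouse embryos at E18.5. The members were taken by gene symbol from the annotation of the arrays, and comprised 7 ligands, 13 receptors, 7 inhibitors and 15 effectors. They were 42 of 18193 named genes and were read by 100 of the 45137 probe sets that were not controls. One group of lungs came from embryos null for Myf5 and Myod1 (written MyoD in the sample titles), the myogenic factors without which skeletal muscle does not form, and the other from wild type embryos. The labels give BALB/c for both genotypes. Total RNA (6 µg, labelled as biotinylated cRNA) of each genotype was hybridised once to each of 2 Affymetrix designs, MOE430A and MOE430B, giving 4 arrays. The labels do not say whether an array held RNA of 1 embryo or of several, or whether both designs received the same RNA. With 1 array per genotype and design no test was possible, so no p-value is given, and the number of arrays limits the precision of every value. The arrays are called DKO-labelled and WT-labelled below, because Myod1 ran against its label.

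Wnt proteins are secreted, lipid-bearing signals. In the canonical branch they bind a Frizzled receptor with the co-receptors Lrp5 or Lrp6, Dishevelled is recruited, the complex of Axin, Apc and Gsk3b stops marking β-catenin for destruction, and β-catenin joins Tcf and Lef proteins on target genes. In the non-canonical branch, Frizzled, Ror and Ryk receptors change cell shape and movement without β-catenin. In the mouse lung, Wnt2 and Wnt2b of the mesenchyme specify lung progenitors, Wnt7b of the epithelium acts on the mesenchyme, and Wnt5a shapes distal airways.

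Signals are in MAS5 units, and a ratio is the signal of the DKO-labelled array over that of the WT-labelled array. A probe set was kept if at least 1 of its signals was at or above the median of all signals, 787.4 for MOE430A and 855.1 for MOE430B. Where only 1 signal reached that median, passing fixes the direction of the ratio. Of the 100 probe sets 63 passed, 38 on MOE430A and 25 on MOE430B, and these read 34 of the 42 members. The 8 members with no passing probe set were the ligands Wnt2b and Wnt5b, the receptors Lrp5 and Ror2, the inhibitors Dkk2 and Wif1, and the effectors Dvl3 and Tcf7l2. Their signals ranged between 20.6 (Dkk2, DKO-labelled) and 763.7 (Ror2, WT-labelled). Levels are not compared between genes.

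The targeted genes were read first. Myf5 had a signal of 8.94 on the DKO-labelled and 110.5 on the WT-labelled array, both below the floor of 283.8 under which signals carry no ratio. Myod1 read 1081 on the DKO-labelled and 85.0 on the WT-labelled array of MOE430A, at least 3.81-fold higher, which goes against the labels. The position of these probe sets against the deletions is unknown here, so every direction below rests on the labels. Xist read 2749 on the DKO-labelled and 7600 on the WT-labelled array, 2.76-fold lower, and the Y-linked Eif2s3y read 502.3 on the DKO-labelled and 13.1 on the WT-labelled array. Sex of the embryos is not labelled and cannot be told apart from genotype. The lung gene Sftpc (surfactant protein C) read 113337 on the DKO-labelled and 78525 on the WT-labelled array.

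Members were set against all passing probe sets at 2-fold and 1.5-fold. On MOE430A none of the 38 passing probe sets was at least 2-fold higher or lower, where 1.8% and 2.05% of all 12203 passing probe sets were. At 1.5-fold, 3 were higher (7.89%, against 6.38% of all) and none was lower (against 7.31% of all). Of these 3, the probe sets of Fzd8 and Dvl2 passed only by the DKO-labelled signal. The median log2 ratio of the 38 was 0.09, with a range of -0.58 to 0.95. On MOE430B 1 of 25 passing probe sets was at least 2-fold higher (4%, against 9.7% of all 12892), and 2 were at least 2-fold lower (8%, against 8% of all). Each of these passed by the signal of 1 array only. At 1.5-fold, 2 were higher (8%, against 18.6% of all) and 5 lower (20%, against 15.5% of all). The median of the 25 was -0.31, with a range of -2.83 to 1.56. The median over all passing probe sets is 0.00 on either design, because the arrays were scaled to it. With 38 and 25 probe sets, these shares do not set the members apart from all probe sets.

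**Figure D1:**
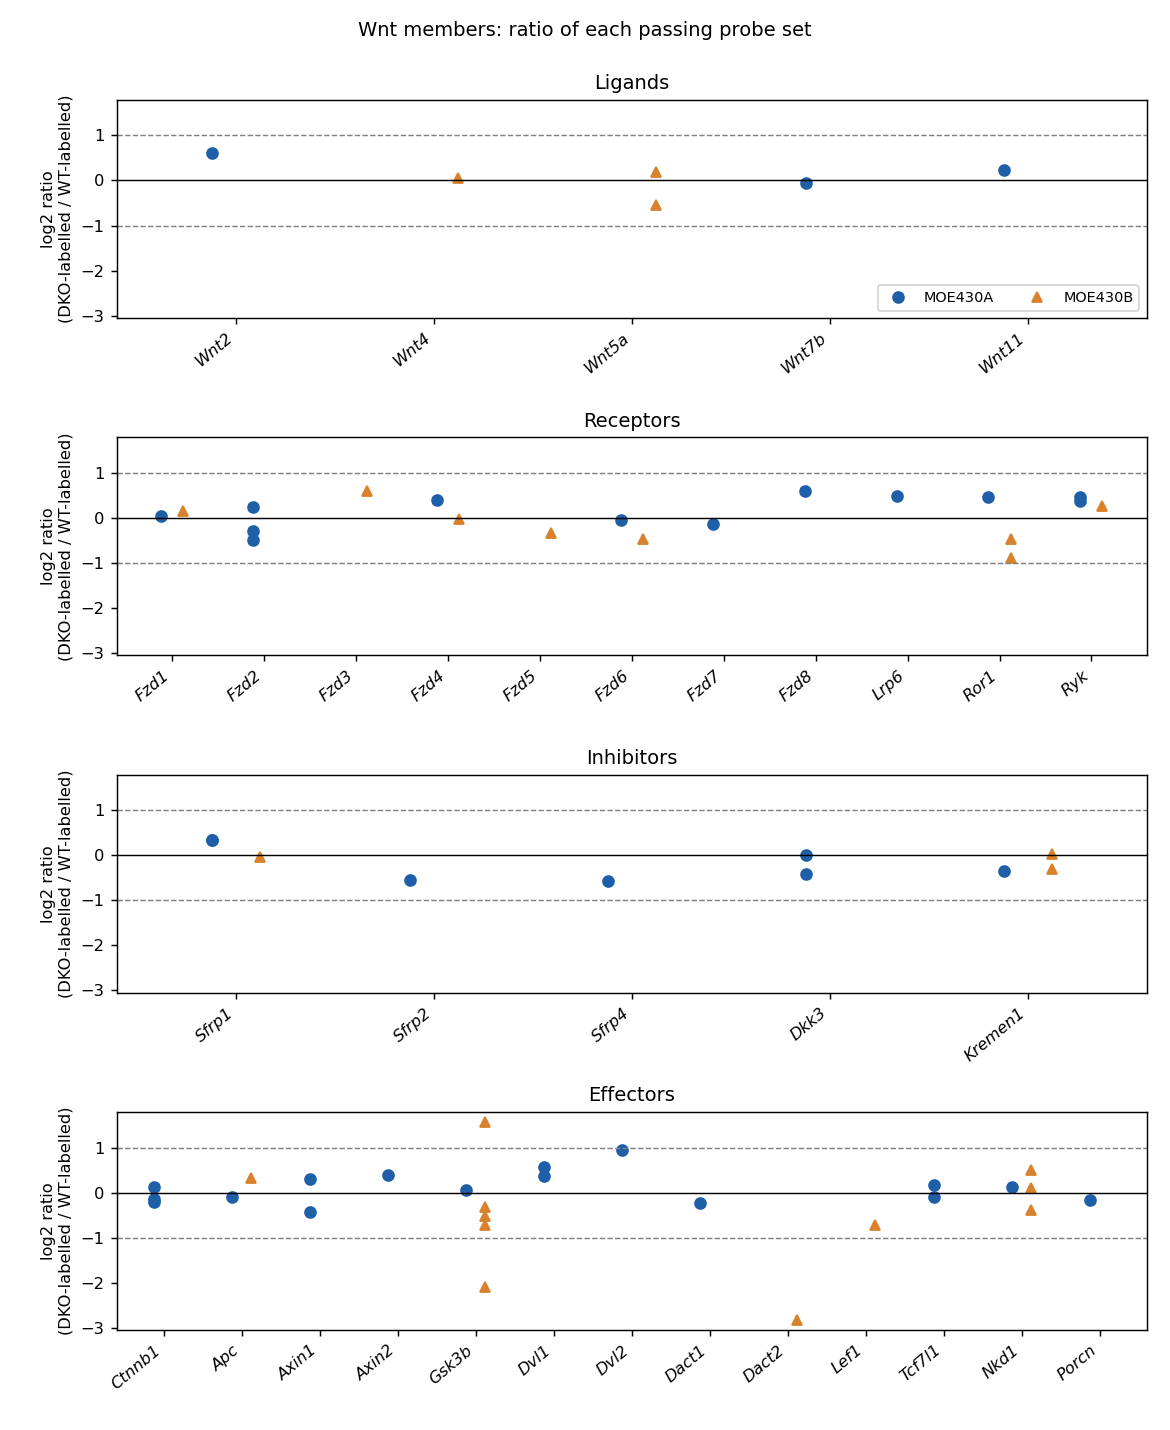
Log2 ratio of the DKO-labelled over the WT-labelled array for each of the 63 passing probe sets, by gene and by role, with MOE430A as circles and MOE430B as triangles; dashed lines mark 2-fold. The points past 2-fold are probe sets of Dact2 and Gsk3b on MOE430B, and those of Gsk3b lie on both sides of 0.

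The precision of a ratio was read from the 100 probe sets printed on both designs, none of them a Wnt member. The SD of 1 log2 ratio from these was 0.24. Both designs may hold the same RNA, so it does not cover the spread between embryos. Their mean log2 ratio was 0.00 on MOE430A and -0.21 on MOE430B, which stands beside the lower median of the members on MOE430B. Dimmer probe sets spread more, with an SD of log2 ratios of 0.54 in the dimmest and 0.41 in the brightest of 4 equal groups of MOE430A probe sets. Among all passing probe sets of MOE430B, sorted by the higher signal into 4 equal groups, 33.9% of the dimmest, 21.5% of the next, 11.4% of the next and 3.88% of the brightest were at least 2-fold apart. On MOE430A these shares were 7.08%, 4.06%, 2.59% and 1.67%. Of 17 members with more than 1 passing probe set, 4 had them all in 1 direction: Fzd1, Fzd6, Ryk and Dvl1. Of the 10 members read on both designs, 5 had medians of the same sign. Fzd4 and Sfrp1, among the others, were within 0.05 of 0 on MOE430B and crossed 0 under other settings.

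**Figure D2:**
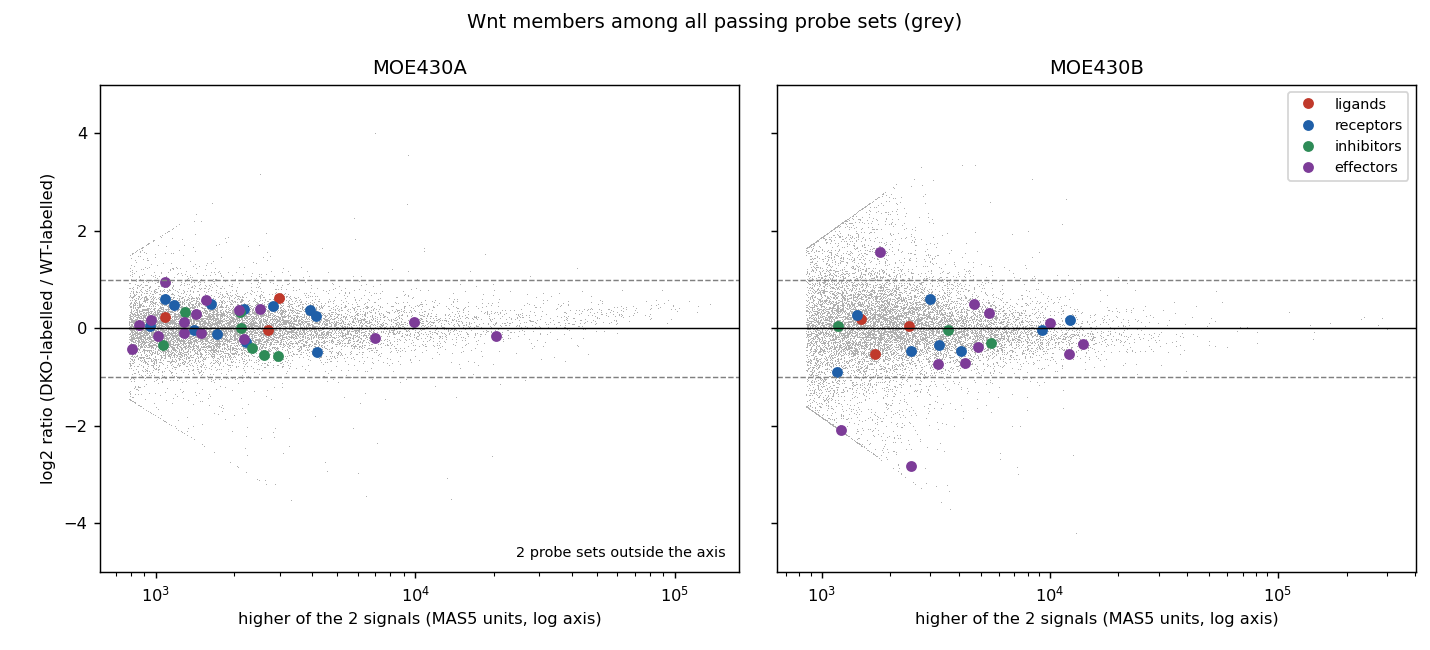
Log2 ratio against the higher of both signals (log axis) for all passing probe sets (grey) of MOE430A (left) and MOE430B (right), with Wnt members coloured by role; dashed lines mark 2-fold. Grey points fan out at low signal, more on MOE430B, and the members past 2-fold have higher signals of 1219, 1807 and 2472.

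Among passing probe sets of the ligands, that of Wnt2 had the highest ratio. Its single probe set read 2981 on the DKO-labelled and 1942 on the WT-labelled array, 1.53-fold higher (log2 ratio 0.62). Wnt7b read 2619 on the DKO-labelled and 2704 on the WT-labelled array (-0.05). Its other probe set, below the filter, read 562.1 on the DKO-labelled and 482.7 on the WT-labelled array. Wnt11, a ligand known mainly from the non-canonical branch, read 1080 on the DKO-labelled and 921.0 on the WT-labelled array (0.23). Wnt4, a ligand needed for kidney tubules, read 2425 on the DKO-labelled and 2351 on the WT-labelled array of MOE430B (0.04). Its MOE430A probe set did not pass, at 566.6 on the DKO-labelled and 168.5 on the WT-labelled array (a log2 ratio of at least 0.998). The passing probe sets of Wnt5a, both on MOE430B, pointed in opposite directions. One read 1184 on the DKO-labelled and 1715 on the WT-labelled array (-0.53), the other 1492 on the DKO-labelled and 1307 on the WT-labelled array (0.19). On MOE430A, below the filter, Wnt5a read 514.3 on the DKO-labelled and 293.7 on the WT-labelled array (0.81) by 1 probe set, and 323.2 on the DKO-labelled and 338.1 on the WT-labelled array (-0.07) by the other. Median log2 ratios of the ligands were 0.23 over 3 probe sets on MOE430A and 0.04 over 3 on MOE430B.

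Markers of the lung mesenchyme, where Wnt2 is made, were mostly higher on the same array. Over 20 passing probe sets of that list on MOE430A the median log2 ratio was 0.23, and 15 had ratios above 1. Of the 20, 6 reached 1.5-fold higher (against 6.38% of all) and 1 reached 1.5-fold lower (against 7.31% of all). Their summed signal was 216720 on the DKO-labelled and 199927 on the WT-labelled array, and Fgf10 and Gli1 did not pass. Members of the list differed in direction, with 5 of the 20 lower. The highest were Tbx5, at 1.46 and 0.61 by its probe sets, and Pdgfrb at 0.93. Tcf21, which marks fibroblast precursors, read 19966 on the DKO-labelled and 10850 on the WT-labelled array (0.88). The collagen gene Col1a1 read 10192 on the DKO-labelled and 17496 on the WT-labelled array by 1 probe set (-0.78) and had 0.04 by the other. Pdgfra, a fibroblast receptor, had -0.45 and -0.16. On MOE430B 3 probe sets of the list passed, with a median of 0.31 and Tcf21 at 0.80. In bulk RNA fewer cells of a type and less RNA per cell cannot be told apart. The part of mesenchymal cell number in the Wnt2 value was not tested.

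**Figure D3:**
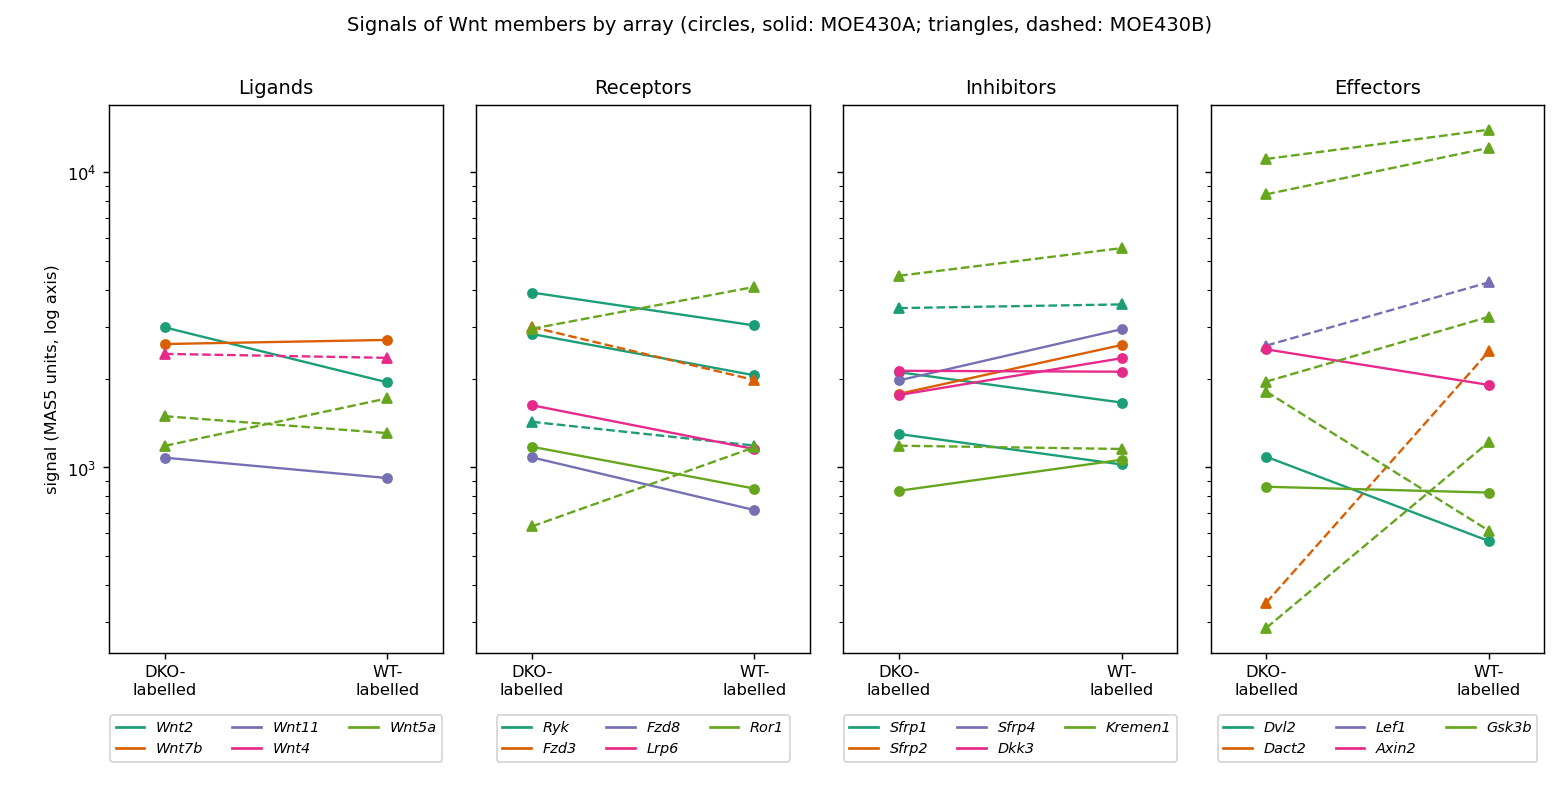
Signals (log axis) of passing probe sets of selected genes per role, with the DKO-labelled array left and the WT-labelled array right in each panel; circles and solid lines are MOE430A, triangles and dashed lines MOE430B. Wnt2 and Dvl2 are higher on the DKO-labelled array, and Sfrp2, Sfrp4, Lef1 and Dact2 are lower.

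Receptor ratios were mostly above 1 on MOE430A and mostly below 1 on MOE430B. The median was 0.31 over 12 probe sets on MOE430A, with 8 higher, and -0.18 over 8 on MOE430B, with 5 lower. Without probe sets whose suffix marks probes shared between transcripts, of 1 gene or of several, the MOE430A median was 0.05. That setting also dropped a Ryk probe set (0.37) with the suffix for transcripts of 1 gene. Ryk, a Wnt receptor with an inactive kinase domain, was higher by all 3 probe sets. On MOE430A it read 2832 on the DKO-labelled and 2052 on the WT-labelled array (0.46) by a probe set of the kind that may cross-hybridise. The other MOE430A probe set of Ryk read 3913 on the DKO-labelled and 3027 on the WT-labelled array (0.37). On MOE430B Ryk read 1428 on the DKO-labelled and 1186 on the WT-labelled array (0.27). Lrp6, the co-receptor of canonical signalling, read 1625 on the DKO-labelled and 1154 on the WT-labelled array (0.49). Its other probe set, below the filter, ran the opposite way at 218.0 on the DKO-labelled and 661.3 on the WT-labelled array.

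Among the Frizzled receptors, Fzd8 read 1082 on the DKO-labelled and 717.4 on the WT-labelled array, 1.51-fold higher (0.59). It passed only by the DKO-labelled signal, which fixes its direction. Fzd3, known for axon guidance and planar polarity, read 2990 on the DKO-labelled and 1978 on the WT-labelled array of MOE430B, 1.51-fold higher (0.60). On MOE430A none of the 4 Fzd3 probe sets passed, and their directions were mixed. Fzd4, which also binds the vascular ligand Norrin, read 2191 on the DKO-labelled and 1675 on the WT-labelled array of MOE430A (0.39). On MOE430B Fzd4 was level, at 9035 on the DKO-labelled and 9212 on the WT-labelled array (-0.03). Fzd2 had 3 passing probe sets of mixed direction. One read 2985 on the DKO-labelled and 4168 on the WT-labelled array (-0.48), and another 1828 on the DKO-labelled and 2230 on the WT-labelled array (-0.29). The remaining one, of the kind that may cross-hybridise, read 4126 on the DKO-labelled and 3468 on the WT-labelled array (0.25).

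The other Frizzled genes were near level or lower. Fzd1 read 947.1 on the DKO-labelled and 916.6 on the WT-labelled array of MOE430A (0.05), and 12329 on the DKO-labelled and 11026 on the WT-labelled array of MOE430B (0.16). Fzd6 read 1365 on the DKO-labelled and 1402 on the WT-labelled array of MOE430A (-0.04), and 1799 on the DKO-labelled and 2475 on the WT-labelled array of MOE430B (-0.46). Fzd7 read 1569 on the DKO-labelled and 1714 on the WT-labelled array (-0.13), and Fzd5 read 2597 on the DKO-labelled and 3286 on the WT-labelled array (-0.34). Ror1, a tyrosine kinase-like receptor of Wnt5a, had opposite directions on the designs. It read 1175 on the DKO-labelled and 848.3 on the WT-labelled array of MOE430A (0.47). On MOE430B it read 631.8 on the DKO-labelled and 1171 on the WT-labelled array (1.85-fold lower, -0.89) by a probe set that may cross-hybridise. That probe set passed only by the WT-labelled signal. The other MOE430B probe set of Ror1 read 2951 on the DKO-labelled and 4088 on the WT-labelled array (-0.47).

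The inhibitors were split by gene. Sfrp2 and Sfrp4, secreted Frizzled-like proteins that bind Wnt, had the lowest ratios among passing member probe sets on MOE430A, each read by 1 probe set. Sfrp4 read 1973 on the DKO-labelled and 2940 on the WT-labelled array, 1.49-fold lower (-0.58), and Sfrp2 read 1776 on the DKO-labelled and 2599 on the WT-labelled array, 1.46-fold lower (-0.55). Sfrp1, of the same family, was on the other side, at 2102 on the DKO-labelled and 1659 on the WT-labelled array (0.34). Its second passing probe set there, of a kind that may cross-hybridise, also had 0.34. On MOE430B Sfrp1 read 3466 on the DKO-labelled and 3567 on the WT-labelled array (-0.04).

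Dkk3, a divergent Dickkopf protein, read 1760 on the DKO-labelled and 2345 on the WT-labelled array by 1 probe set (-0.41), and 2125 on the DKO-labelled and 2111 on the WT-labelled array by the other (0.01). Kremen1, a membrane receptor through which Dickkopf proteins clear Lrp6, read 834.2 on the DKO-labelled and 1062 on the WT-labelled array of MOE430A (-0.35). On MOE430B Kremen1 read 4459 on the DKO-labelled and 5532 on the WT-labelled array (-0.31), and 1185 on the DKO-labelled and 1155 on the WT-labelled array (0.04). Median log2 ratios of the inhibitors were -0.35 over 7 probe sets on MOE430A, with 4 lower, and -0.04 over 3 on MOE430B.

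Among the cytoplasmic effectors, both Dishevelled genes that passed had ratios above 1. Dvl2 had the highest ratio among passing member probe sets on MOE430A, at 1087 on the DKO-labelled and 563.7 on the WT-labelled array, 1.93-fold (0.95). That probe set passed the filter only by the DKO-labelled signal, which fixes its direction. The second Dvl2 probe set, below the filter, was on the other side with 407.7 on the DKO-labelled and 521.1 on the WT-labelled array. With the floor raised to the median signal the Dvl2 ratio was 0.47. Dvl1 was higher by both probe sets, at 2088 on the DKO-labelled and 1612 on the WT-labelled array (0.37), and at 1561 on the DKO-labelled and 1046 on the WT-labelled array (0.58).

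β-catenin and its scaffolds were mostly near level. Ctnnb1, which encodes β-catenin, had log2 ratios of -0.15, 0.13 and -0.20. Its signals were 18355, 9856 and 6078 on the DKO-labelled array, against 20357, 9032 and 6996 on the WT-labelled array. Apc, the scaffold lost in intestinal tumours, read 1403 on the DKO-labelled and 1493 on the WT-labelled array of MOE430A (-0.09), and 5442 on the DKO-labelled and 4374 on the WT-labelled array of MOE430B (0.31). The probe sets of Axin1, a scaffold of the complex, had 0.30 and -0.43, the latter passing only by the WT-labelled signal. Porcn, the acyltransferase that attaches lipid to Wnt proteins, read 904.2 on the DKO-labelled and 1015 on the WT-labelled array (-0.17).

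Gsk3b, the kinase of that complex, had 6 passing probe sets with log2 ratios between -2.09 and 1.56. On MOE430B 3 of them were lower by a moderate amount. They read 11086, 8417 and 1954 on the DKO-labelled array, against 13930, 12091 and 3238 on the WT-labelled array (-0.33, -0.52 and -0.73). The remaining MOE430B probe sets were dim and opposed, one at 1807 on the DKO-labelled and 611.1 on the WT-labelled array (2.96-fold higher), the other at 286.2 on the DKO-labelled and 1219 on the WT-labelled array (4.26-fold lower). The former passed only by the DKO-labelled signal and the latter only by the WT-labelled signal, which fixes their directions. These 2 probe sets lie in the signal ranges where 21.5% and 33.9% of all MOE430B probe sets were at least 2-fold apart in either direction. Shares as far apart as these probe sets were not counted. With the floor at the median signal the 2 dim probe sets had log2 ratios of 1.08 and -0.51. On MOE430A Gsk3b read 860.5 on the DKO-labelled and 822.5 on the WT-labelled array (0.07).

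Dact2 had the lowest ratio among passing member probe sets. Dact proteins bind Dishevelled, and Dact2 also limits TGF-β receptors in zebrafish. Its passing probe set, on MOE430B, read 348.6 on the DKO-labelled and 2472 on the WT-labelled array, 7.09-fold lower (-2.83). It passed only by the WT-labelled signal, which fixes its direction. A second probe set, below the filter, read 464.1 on the DKO-labelled and 671.1 on the WT-labelled array, and the remaining one read 147.7 on the DKO-labelled and 227.2 on the WT-labelled array, below the floor. The passing probe set lies in the signal range where 11.4% of MOE430B probe sets were at least 2-fold apart in either direction. The share as far apart as Dact2 was not counted. The probe sets shared by both designs had signals 3.95-fold higher on MOE430B, and with the MOE430A filter carried over at that ratio, to 3114, Dact2 did not pass. With the floor at the median its ratio was -1.53. Dact1, its relative, read 1866 on the DKO-labelled and 2187 on the WT-labelled array of MOE430A (-0.23).

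Of the nuclear factors, Lef1 was lower. Its MOE430B probe set read 2587 on the DKO-labelled and 4237 on the WT-labelled array, 1.64-fold lower (-0.71). The MOE430A probe set, below the filter, had the same direction, with 252.6 on the DKO-labelled and 647.5 on the WT-labelled array, at least 2.28-fold lower. Tcf7l1, which acts largely as a repressor, had 0.17 and -0.09 by its probe sets. Lef1 is also a gene of developing T cells, and T cell and thymocyte markers were far lower on the same arrays. On MOE430A 10 of the 20 listed genes passed, and 13 of 13 passing probe sets were lower. Of these 12 were at least 2-fold lower (against 2.05% of all). Most passed only by the signal of the WT-labelled array, which fixes their direction. The summed signal was 7002 on the DKO-labelled and 36573 on the WT-labelled array. On MOE430B 5 of the listed genes passed, and 12 of 12 passing probe sets were lower. Of these 7 were at least 2-fold lower (against 8% of all). Sums there were 17167 on the DKO-labelled and 44927 on the WT-labelled array. Rag1, which T cell precursors need to build their receptor, read 135.7 on the DKO-labelled and 3308 on the WT-labelled array. Thymic epithelium markers were lower by 7 of 7 probe sets on MOE430A, most of which also passed only by the WT-labelled signal. Their sums were 10667 on the DKO-labelled and 28676 on the WT-labelled array. On MOE430B 2 of 3 were lower, none 2-fold, with sums of 3405 on the DKO-labelled and 3763 on the WT-labelled array. The part of thymic cells in the Lef1 value was not tested.

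Axin2 and Nkd1 are members that canonical signalling induces. Axin2 was higher by both probe sets, 1 of which passed, and Nkd1 had passing probe sets on both sides of 0. Axin2, a scaffold induced by β-catenin, read 2513 on the DKO-labelled and 1904 on the WT-labelled array of MOE430A, 1.32-fold higher (0.40), and its dim second probe set read 410.5 on the DKO-labelled and 256.5 on the WT-labelled array. Nkd1, an induced antagonist that binds Dishevelled, read 1286 on the DKO-labelled and 1182 on the WT-labelled array of MOE430A (0.12). On MOE430B its probe sets read 10018, 4650 and 3710 on the DKO-labelled array, against 9311, 3292 and 4869 on the WT-labelled array (0.11, 0.50 and -0.39). Effectors had medians of 0.09 over 16 probe sets on MOE430A and -0.39 over 11 on MOE430B, where 5 of the 11 read Gsk3b.

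The letters that Tcf and Lef proteins recognise are shown because these proteins are the last step of the pathway. The 250 bases before each start in the RefSeq promoter table (GRCm38.p6) were searched on both strands for CTTTGAA or CTTTGAT or CTTTGTA or CTTTGTT. The table held 35 windows for 27 members, and 5 windows of 5 members had a match (14.3%), against 14.8% of all 32851 windows. The matches are given 5′ to 3′ on the strand of the gene, with the motif or its reverse complement in capitals.
Lef1: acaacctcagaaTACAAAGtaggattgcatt
Tcf7l2: caaaatatcaggCTTTGTTcttttga
Wnt11: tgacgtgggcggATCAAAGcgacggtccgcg
Wnt5b: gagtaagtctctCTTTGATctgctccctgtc
Fzd7: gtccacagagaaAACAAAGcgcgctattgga

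They lie at chr3:131156135-131156165 (+ strand) for Lef1, chr19:55895295-55895320 (+ strand) for Tcf7l2, chr7:98835049-98835079 (+ strand) for Wnt11, chr6:119449439-119449469 (- strand) for Wnt5b and chr1:59482005-59482035 (+ strand) for Fzd7. Of these genes, Wnt5b and Tcf7l2 had no passing probe set, Lef1 was lower, and Wnt11 and Fzd7 had log2 ratios of 0.23 and -0.13. A match is a description of the letters and not of binding.

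A further 67 genes of the pathway were listed. On MOE430A 28 of them were read by 41 passing probe sets, of which 2 were at least 2-fold higher (4.88%, against 1.8% of all) and none lower (against 2.05%), with a median of 0.06. On MOE430B 23 were read by 36 passing probe sets, of which 2 were at least 2-fold higher (5.56%, against 9.7% of all) and 2 lower (5.56%, against 8%), with a median of 0.01. Sfrp5, an inhibitor of the Sfrp family, read 1058 on the DKO-labelled and 166.3 on the WT-labelled array of MOE430A (at least 3.73-fold higher), but 1653 on the DKO-labelled and 1924 on the WT-labelled array of MOE430B (-0.22). Ctnnbip1, which keeps β-catenin from Tcf proteins, read 1625 on the DKO-labelled and 741.6 on the WT-labelled array (1.13), with 0.15 by its other probe set. On MOE430B Btrc, of the ubiquitin ligase that marks β-catenin, had 1.33 by 1 of 3 probe sets, and Csnk1a1, the kinase that primes β-catenin, had 1.05 and 0.96. The Csnk1a1 probe set at 0.96 passed only by the DKO-labelled signal. On MOE430A Csnk1a1 had -0.14 and 0.37. Tnks, which destabilises Axin, had -2.31 by 1 of 4 probe sets on MOE430B. The ligand gene Wnt9a read 409.9 on the DKO-labelled and 1348 on the WT-labelled array (-1.72). This Wnt9a probe set and that of Tnks at -2.31 passed only by the WT-labelled signal. The MOE430A probe set of Sfrp5, that of Ctnnbip1 at 1.13 and that of Btrc at 1.33 passed only by the DKO-labelled signal. Passing fixes the directions of all of these.

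General Wnt target genes had no common direction. Of 13 passing probe sets on MOE430A 8 were higher and 5 lower, with a median of 0.13, and of 6 on MOE430B 3 were higher and 3 lower, with a median of 0.09. On MOE430A the highest were Bmp4, a growth factor of distal lung tips, and Apcdd1, a membrane inhibitor of Wnt, each at 0.32. Apcdd1 had 0.96 and 0.47 on MOE430B. Its probe sets at 0.32 and 0.96 passed only by the DKO-labelled signal. The proliferation genes Myc and Mycn were the lowest on MOE430A, Myc at 532.3 on the DKO-labelled and 1054 on the WT-labelled array (-0.99) and Mycn at -0.73 and -0.28. Myc, and Mycn by the probe set at -0.28, passed only by the WT-labelled signal, which fixes their direction. On MOE430A 22 of 23 cell cycle probe sets were lower as well, with a median of -0.68 and sums of 50962 on the DKO-labelled and 80298 on the WT-labelled array. Some of them passed only by the WT-labelled signal. On MOE430B 2 cell cycle probe sets passed, 1 higher and 1 lower. The part of cell division in the Myc value was not tested.

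**Figure D4:**
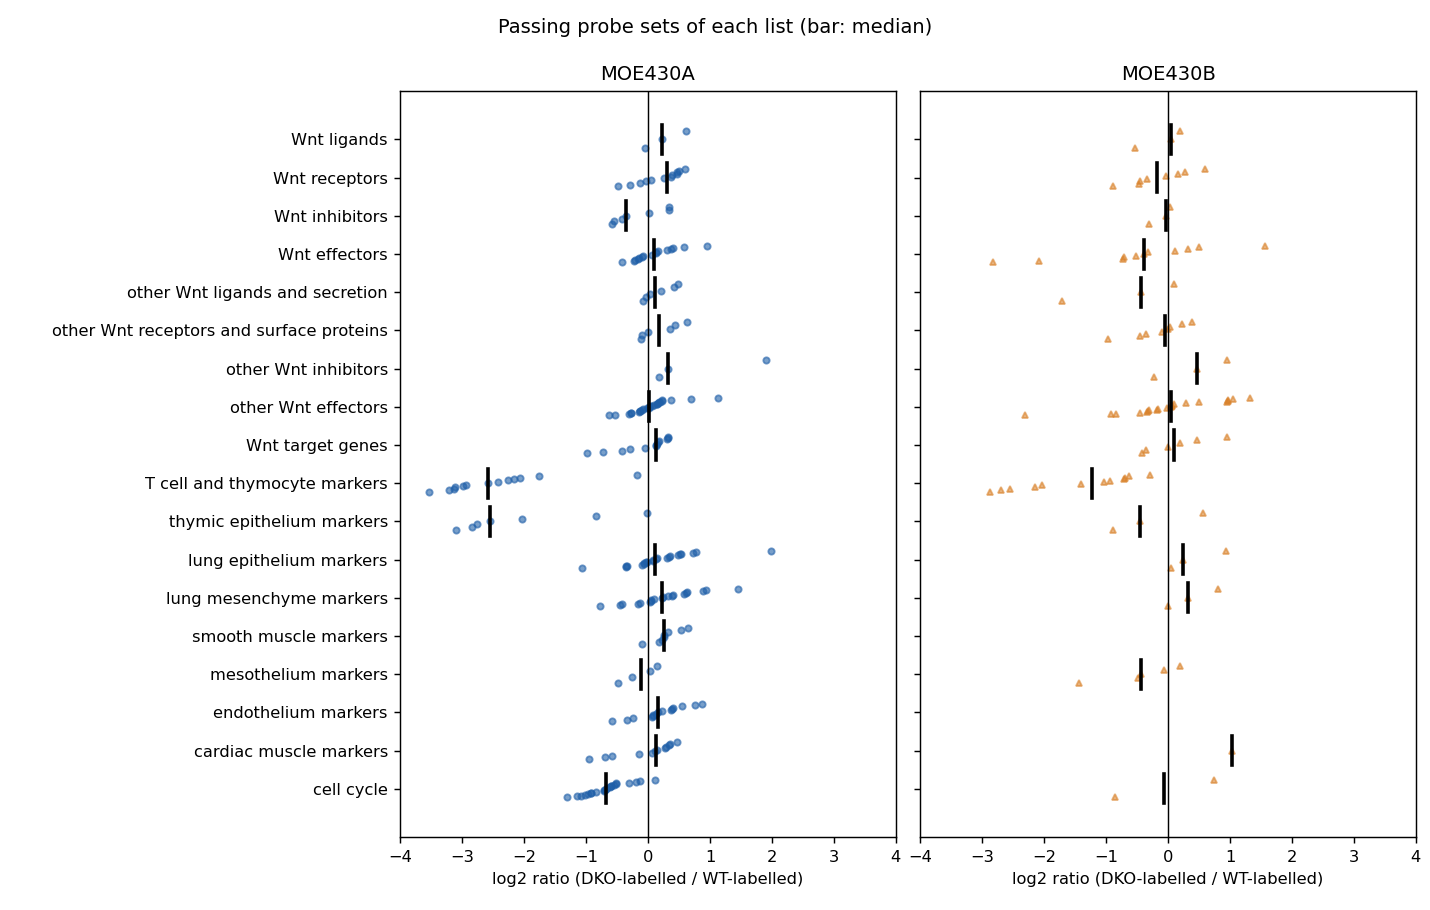
Log2 ratios of the passing probe sets of the Wnt roles, other Wnt genes and marker lists on MOE430A (left) and MOE430B (right); each point is 1 probe set and the black bar the median of the list. The lists of Wnt roles straddle 0 on both designs, while T cell and thymocyte markers have medians of -2.59 on MOE430A and -1.22 on MOE430B.

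Medians of the remaining marker lists on MOE430A were 0.11 over 22 probe sets for lung epithelium, 0.15 over 15 for endothelium, 0.26 over 8 for smooth muscle and -0.11 over 4 for mesothelium. Cardiac muscle had 0.13 over 12, with summed signals of 352613 on the DKO-labelled and 317391 on the WT-labelled array. On MOE430B mesothelium had -0.44 over 5, with the lowest of 4 Upk1b probe sets 2.71-fold lower, and lung epithelium had 0.24 over 3. The single cardiac probe set there, of Tnnt2, was 2.05-fold higher, while Tnnt2 had log2 ratios of 0.12 and 0.34 on MOE430A. None of the listed endothelium genes was read on MOE430B, and the 1 smooth muscle gene read there did not pass.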

How the data were processed

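Values are the deposited intensities of 4 arrays, 1 signal per probe set on a linear scale. The submitters' processing notes name MAS5, and the sources used here give no version, settings or detection calls. Each array had a 2% trimmed mean of about 1500. Ratios were formed only within a design. Control probe sets (64 per design) were omitted, and signals of the DKO-labelled arrays were divided by 1.004 (MOE430A) and 1.008 (MOE430B), setting the median ratio of passing probe sets to 1. Signals below the 25th percentile (283.8 and 278.1) were raised to it, so a ratio with 1 signal below it is a lower bound. Gene names came from GEO's platform annotation, using probe sets with 1 gene, and all 42 members matched RefSeq by Entrez identifier. By rule, the named probe sets were those of members at 1.5-fold or with a signal at the 75th percentile, and up to 2 highest and 2 lowest of each other list. Tcf21, Col1a1, Pdgfra, Rag1, Upk1b, Tnnt2, the other probe sets of named genes and members outside the rule were chosen after their values were seen. Members and lists were chosen with earlier results of these data known. The steps were tested with python 3.11, numpy 2.4.6 and pandas 2.3.3 on simulated arrays with equal noise at every signal. These do not copy the larger spread of dim probe sets. Scaling, floor, filter and probe set choice were varied in 10 alternatives.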

Additional observations from a re-analysis of the deposited data

How the results depend on the processing

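The 14 medians and counts were recomputed under 10 alternatives, and those on MOE430B also with the MOE430A thresholds, chosen after seeing the data. Of 146 values 123 kept their sign and stayed within 0.24 on the log2 scale, or within 1.5 times for counts. With no filter, 1 MOE430A probe set was 2-fold higher (Wnt4) and 2 were lower (Lef1 and Lrp6), the MOE430A medians of all members, receptors, inhibitors and effectors were 0, since pairs of signals under the floor have a ratio of 1, and on MOE430B the medians were -0.0303 for all members and 0.0107 for receptors. With the filter at the 75th percentile, the MOE430A medians of all members and effectors were -0.00364 and -0.025, and MOE430B had 0 probe sets 2-fold higher and 1 lower. Without probe sets whose suffix marks probes shared between transcripts, of 1 gene or of several, MOE430A receptors had 0.0472. On MOE430B, 1 probe set per gene gave 0 genes 2-fold higher, 1 lower and a ligand median of -0.25, and the median per gene 0, 1 and -0.0638. The floor at the median left 1 probe set 2-fold lower. MOE430A thresholds on MOE430B left 0 higher and 0 lower and receptors at 0.0537. Of 304 values of single probe sets, 297 moved by under 0.24 and none past 1.5-fold changed sign, while near-level probe sets of Dkk3, Fzd4 and Sfrp1 crossed 0 under some. The other 7 were of Dvl2, Ror1, Dact2 and Gsk3b, with the floor at the median or with loess scaling, which gave -1.14 for Ror1 and -3.09 for the lowest Gsk3b probe set. No paired analysis was possible because each genotype had 1 array per design. Dim signals limit the ratios, more on MOE430B than on MOE430A.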
